A study of Mus musculus with 8 samples.

Results

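The semaphorins, plexins, neuropilins, ephrins, Eph receptors, netrins and Unc5 receptors were followed in whole hippocampus of mice lacking Ctcf in forebrain excitatory neurons. The genes were taken by a rule on their names on the array. The rule uses no values, but it was chosen with earlier results of these data known. The names matched 63 genes on 90 probes, of 30139 named genes on 39429 probes. Of these genes 34 encode ligands and 29 encode receptors, and 58 were bright enough to be compared between genotypes.

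Conditional knockout mice (CKO) carried Ctcf loxP/loxP with Camk2a-Cre, and control mice (WT) carried Ctcf loxP/loxP without Cre. Camk2a-Cre is driven by a promoter active in forebrain excitatory neurons, so glia, vessels and interneurons of the tissue are outside the intended deletion. All mice were C57BL/6, were 3 to 6 months old and had been through behavioural tests (open field, sensorimotor battery, water maze and social approach). Each genotype was represented by 3 pools of 3 mice. CKO and WT pools of the same number matched in sex and age: 2 females with 1 male (19 to 23 weeks) in pool 1, only females (18 to 19 weeks) in pool 2, and only males (15 to 17 weeks) in pool 3. Both first pools were measured on 2 arrays each, which were averaged, so that n was 3 pools per genotype. Both genotypes carried the floxed alleles and only CKO carried Cre, so effects of Cre itself and of Ctcf loss cannot be told apart.

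Guidance molecules are cell-surface or secreted proteins that steer growing axons by attraction or repulsion, and many remain in the adult hippocampus, where they act at synapses and dendritic spines. Semaphorins signal through plexins, and most of the secreted class 3 semaphorins need a neuropilin as the ligand-binding partner. A ephrins are held to the membrane by a lipid anchor and bind mainly EphA receptors, B ephrins span the membrane and bind mainly EphB receptors, and signals can run in both directions across the contact. Netrins attract axons through Dcc and repel them through Unc5 receptors. Netrin-G proteins share the netrin fold but are anchored in the membrane and bind other partners. The deleted gene, Ctcf, encodes a DNA-binding protein that holds the anchors of chromatin loops together with cohesin.

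Signals are given as log2 of the processed signal relative to the 75th percentile of the same array, so that 0 is the level of that percentile, and differences are CKO minus WT on this log2 scale. The 75th percentile of the arrays ran from 2112 to 5104 intensity units and the share of spots well above background from 59.2% to 66.0%, with 0 saturated. The second array of WT pool 1 was the lowest in both measures. Ctcf, the targeted gene, was at 0.18, 0.16 and 0.05 in CKO pools 1, 2 and 3, against 0.83, 1.12 and 1.04 in WT pools. Each CKO pool was lower than each WT pool. The difference was -0.87 (SE 0.13), with an adjusted p of 0.143 in limma (Benjamini-Hochberg over 18333 genes) and 0.0292 with the pool number as a block. It did not pass without the block, and the second array of WT pool 1, at 0.57, was the lowest of the 4 WT arrays. Without that array the difference was -0.95 with an adjusted p of 0.00411 in limma, and without the whole of WT pool 1 it was -0.95 with 0.0265. Whether the Ctcf probe lies in the deleted exons was not analysed here. The tissue carried 10 of 11 hippocampal excitatory neuron markers above background, and the probe for Prox1, a dentate granule cell marker, was not well above it.

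Promoter windows from RefSeq (GRCm38.p6), reaching from 250 bases before to 50 bases after an annotated start, were found for 55 of the 63 genes, in 69 windows. They were searched on both strands for the CTCF core motif in a loose form of 12 positions, in which only its invariant letters were held and any base was allowed elsewhere. This loose form was in 797 of 32851 windows of all genes (2.43%) and in 2 of the 69 windows of the guidance genes (2.9%), those of Plxnd1 and Epha1. The full core consensus, searched after that result was known, was in 183 windows of all genes (0.557%) and in 0 of the 69. The windows of Plxnd1 and Plxnc1 are printed because these plexins had the smallest unadjusted p among the guidance genes and differed between genotypes in opposite directions, and that of Epha1 because it holds the other match. Capitals mark the loose match, which lay 169 bases before the start in Plxnd1 and 184 bases before it in Epha1, on the strand of the gene in both. The Plxnc1 window holds no match. A match is a string of letters and not a bound site, and no binding data were analysed here.
Plxnd1 promoter, chr6:115994956-115995255, minus strand: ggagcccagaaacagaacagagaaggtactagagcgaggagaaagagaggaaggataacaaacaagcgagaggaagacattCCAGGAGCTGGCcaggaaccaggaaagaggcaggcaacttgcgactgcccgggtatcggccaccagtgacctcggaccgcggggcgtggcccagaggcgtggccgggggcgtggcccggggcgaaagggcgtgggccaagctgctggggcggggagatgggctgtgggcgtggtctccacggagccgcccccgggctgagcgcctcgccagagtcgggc
Plxnc1 promoter, chr10:94944796-94945095, minus strand: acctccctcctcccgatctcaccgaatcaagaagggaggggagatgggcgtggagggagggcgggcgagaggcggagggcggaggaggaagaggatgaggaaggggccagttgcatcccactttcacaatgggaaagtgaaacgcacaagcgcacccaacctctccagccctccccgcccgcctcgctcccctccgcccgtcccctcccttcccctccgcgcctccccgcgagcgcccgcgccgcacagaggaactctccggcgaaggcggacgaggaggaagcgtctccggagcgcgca
Epha1 promoter, chr6:42373219-42373518, minus strand: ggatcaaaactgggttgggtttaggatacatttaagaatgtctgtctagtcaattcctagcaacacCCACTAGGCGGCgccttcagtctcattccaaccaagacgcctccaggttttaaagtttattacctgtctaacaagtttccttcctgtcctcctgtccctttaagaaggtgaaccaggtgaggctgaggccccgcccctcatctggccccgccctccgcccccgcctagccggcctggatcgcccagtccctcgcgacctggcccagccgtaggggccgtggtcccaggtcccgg

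Of the 58 measured guidance genes, 0 passed an adjusted p of 0.05 between CKO and WT in limma with Benjamini-Hochberg adjustment, where 0.0273% of all genes tested passed (5 of 18333, all higher in CKO). With the pool number as a block 0 of the 58 passed as well, where 0.562% of all genes did (103 genes, 72 higher and 31 lower in CKO). The lowest adjusted p among the guidance genes was 0.327 in limma without the block and 0.130 with it, both for Plxnd1. At an unadjusted p under 0.05 there were 5 (1 higher and 4 lower in CKO), or 8.62% of the guidance genes, where 5.48% of all genes stood. The same 5 genes had CKO pools that did not overlap the WT pools, which was the case for 11.3% of all genes (1 of the 58 higher in CKO, where 5.71% of all genes were, and 4 lower, where 5.63% were). This count moved with single pools, as did the share of all genes at the same unadjusted p. It was 2 without CKO pool 2 (3.38% of all genes), 2 without CKO pool 3 (3.43%), 3 without CKO pool 1 (3.19%), 3 without WT pool 3 (4.01%) and 13 without WT pool 1 (18.8%). It was 9 without the second array of WT pool 1 (16.8% of all genes) and 0 in slide 2 alone (1.41%). At the adjusted p of 0.05, the number of all genes that passed in limma was 21 without WT pool 1, 108 without its second array, 2 without CKO pool 1 and 0 without CKO pool 3 or without WT pool 3.

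The measured guidance genes were balanced in direction, with 29 higher and 29 lower in CKO, where 49.4% of all genes were higher. Their differences ran from -0.73 to 0.51 with a median of -0.0011, and the median over all genes was -0.0032. Among ligands 11 were higher and 19 lower in CKO, and among receptors 18 were higher and 10 lower, with none past the threshold in either set. The 95% interval lay within a 2-fold difference in both directions for 52 of the 58, where 90.9% of all genes did so. The 6 genes with wider intervals were Sema3b, Nrp1, Efnb1, Epha1, Epha8 and Ntn1. In tissue of mixed cells, fewer cells of a type and less RNA per cell cannot be told apart. The p-values measure the spread between pools, and with 3 pools a genotype the smallest p of an exact permutation test is 0.1.

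**Figure D1:**
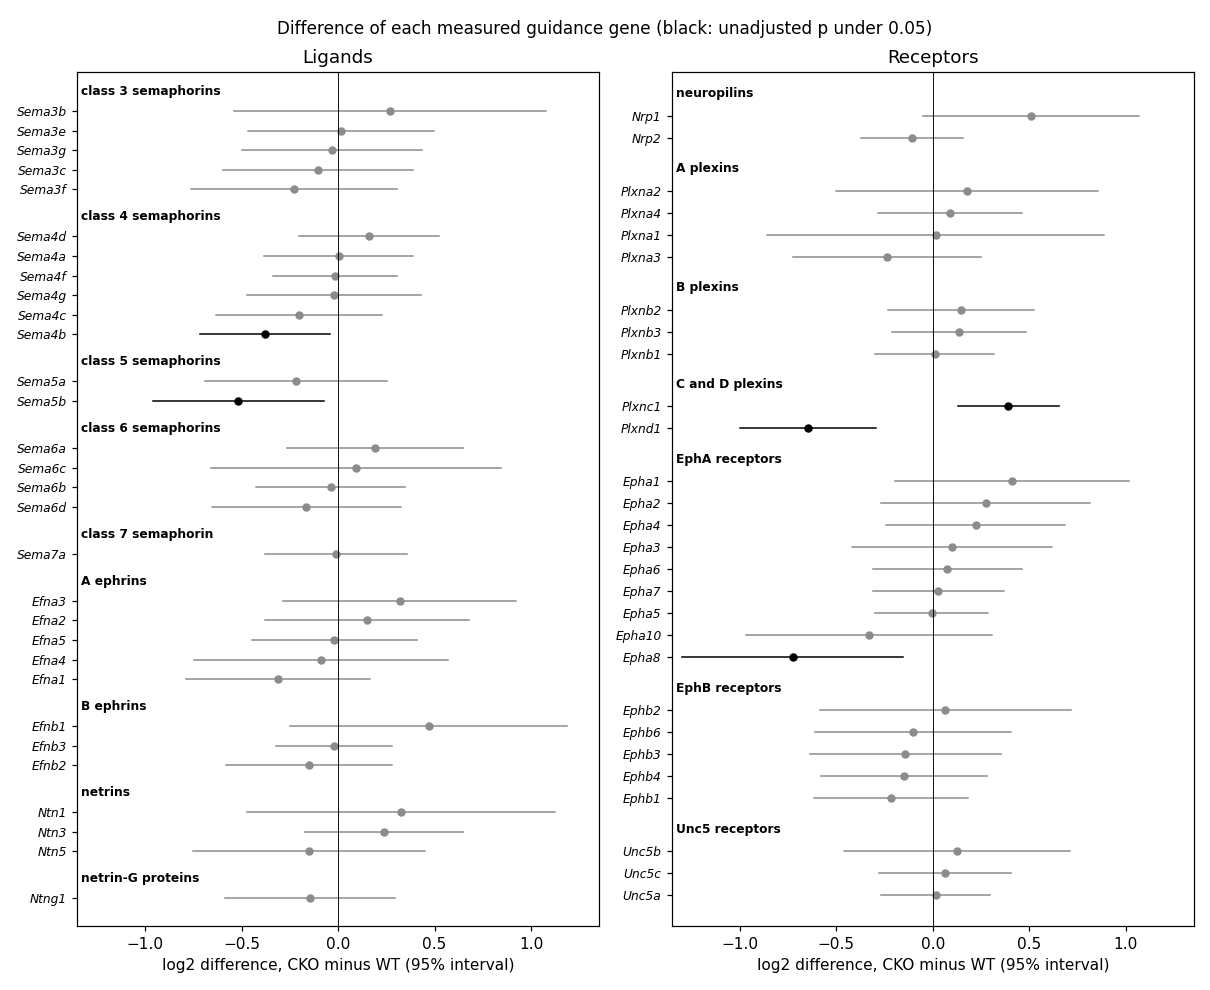
Log2 difference (CKO minus WT) of each of the 58 measured guidance genes with its 95% interval from limma, ligands on the left and receptors on the right, by class. Points in black have an unadjusted p under 0.05 (Sema4b, Sema5b, Plxnc1, Plxnd1 and Epha8), and the intervals of the others cross 0.

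The leading difference by p was in Plxnd1, the plexin that binds Sema3e directly and guides vessels and axons. Its signal was 0.07, 0.01 and -0.28 in CKO pools 1, 2 and 3, against 0.43, 0.76 and 0.54 in WT pools. The genotypes did not overlap, and CKO pool 3 was the lowest. The difference was -0.65 (SE 0.15, 95% interval -0.999 to -0.30), a WT level 1.57-fold the CKO level, with an adjusted p of 0.327 in limma. The other measured Plxnd1 probe differed by -0.40, with pools that overlapped. Sema3e was at -0.42, -0.61 and -0.32 in CKO pools and -0.05, -0.83 and -0.52 in WT pools, a difference of 0.02 (SE 0.21), with the CKO values inside the WT range. As Plxnd1 is known from vessels, the endothelial and mural list is given beside it. Of its markers 12 of 14 were higher in CKO, where 49.4% of all genes were, and the median difference was 0.07. The pool means of these markers were 0.01 to 0.21 in CKO and -0.11 to 0.08 in WT relative to the WT mean. Their part in the Plxnd1 value was not tested.

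Plxnc1, the receptor of the lipid-anchored Sema7a, was the one gene of the 5 that was higher in CKO. Its signal was 0.93, 0.90 and 0.95 in CKO pools 1, 2 and 3, against 0.49, 0.54 and 0.59 in WT pools. The pools of each genotype lay close together and the genotypes did not overlap. The difference was 0.39 (SE 0.11, 95% interval 0.13 to 0.65), a 1.31-fold higher level in CKO, with an adjusted p of 0.576 in limma. Its other probe, above background on 4 of 4 CKO arrays and 3 of 4 WT arrays, differed by 0.51 with pools that overlapped. That probe entered through its CKO values, so its direction is no separate support. Sema7a itself was at 2.74, 2.82 and 2.98 in CKO pools and 2.55, 2.91 and 3.11 in WT pools, so that the CKO pools lay within the WT range, and it differed by -0.01 (SE 0.16).

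Epha8, an EphA receptor, had the widest difference in size among the measured guidance genes. It was at -1.50, -1.95 and -2.05 in CKO pools 1, 2 and 3, against -1.34, -1.36 and -0.62 in WT pools. CKO pool 1 was near WT pools 1 and 2, and WT pool 3 stood above the other pools. The difference was -0.73 (SE 0.25, 95% interval -1.30 to -0.15), with an adjusted p of 0.755 in limma, and it was -0.32 in slide 1 alone, which does not hold pool 3. Without WT pool 3 the difference was -0.48.

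Sema5b and Sema4b, both membrane-spanning semaphorins, were the ligands at an unadjusted p under 0.05. Sema5b, a class 5 semaphorin with thrombospondin repeats, was at -2.86, -3.01 and -2.99 in CKO pools 1, 2 and 3, against -2.62, -2.53 and -2.17 in WT pools. All CKO pools were lower than all WT pools, by a difference of -0.52 (SE 0.19) with an adjusted p of 0.816 in limma. A second measured Sema5b probe differed by -0.17 with overlapping pools. Sema4b, of class 4, was at -1.50, -1.50 and -1.44 in CKO pools, against -1.07, -1.21 and -1.02 in WT pools. Again the genotypes did not overlap, and the difference was -0.38 (SE 0.15) with an adjusted p of 0.838 in limma.

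**Figure D2:**
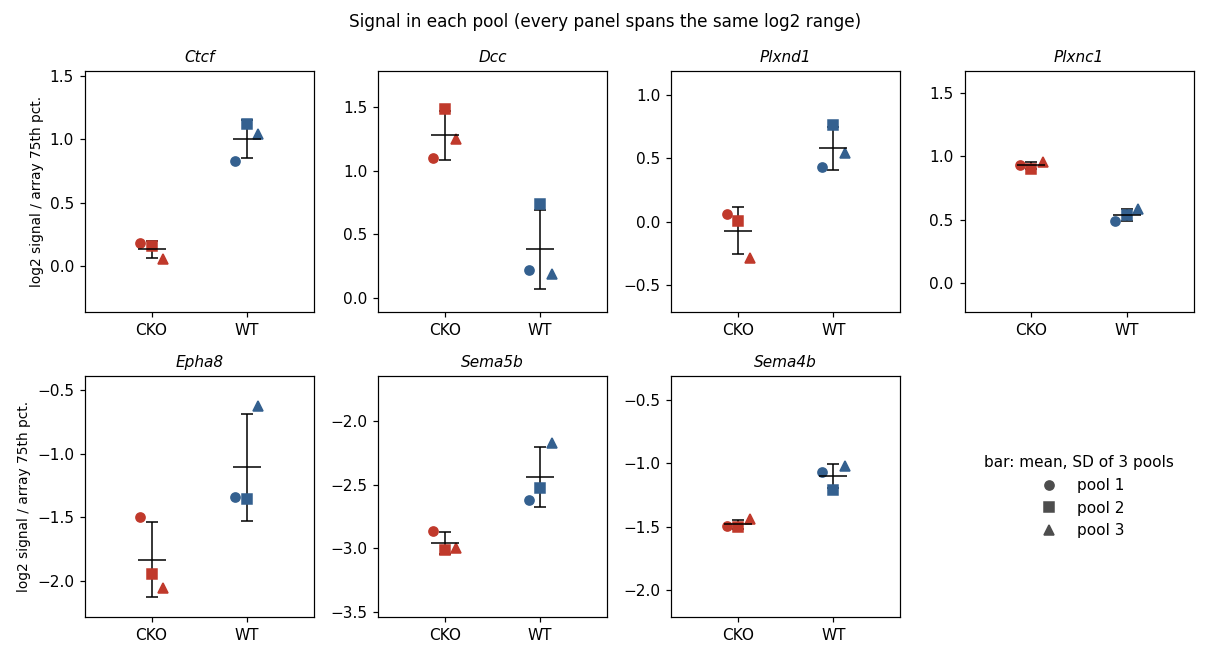
Log2 signal relative to the array's 75th percentile in each pool (circle pool 1, square pool 2, triangle pool 3; CKO red on the left, WT blue on the right) for Ctcf, Dcc and the 5 guidance genes at an unadjusted p under 0.05, with the mean and SD of 3 pools; every panel spans the same log2 range. In each panel all CKO pools lie on one side of all WT pools, and only Dcc and Plxnc1 lie higher in CKO.

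The other semaphorins gave no gene at an unadjusted p under 0.05. In class 3, the secreted semaphorins, 2 of 5 measured genes were higher and 3 lower in CKO, with differences from -0.23 (Sema3f, SE 0.23) to 0.27 (Sema3b, SE 0.35). Sema3f, a ligand of Nrp2 that limits spines on hippocampal neurons, was at -0.16, -0.59 and -0.31 in CKO pools and -0.28, -0.47 and 0.38 in WT pools. WT pool 3 alone stood above the others, and without it the difference was 0.02. Sema3b was at -1.01, -0.77 and -1.40 in CKO pools and -2.18, -1.04 and -0.77 in WT pools, with WT pool 1 below all other pools. Choroid plexus markers showed the same low pool: all 12 were higher in CKO, where 49.4% of all genes were. Their median difference was 0.86. Pool means relative to the WT mean were 0.48 to 0.99 in CKO and -1.16, 0.38 and 0.78 in WT pools 1, 2 and 3. Without WT pool 1, Sema3b differed by -0.16; the part of choroid plexus tissue in its value was not tested. Of the other secreted semaphorins, Sema3a and Sema3d were not measured. The brighter Sema3a probe passed the background limit on 1 of 4 CKO arrays and 2 of 4 WT arrays.

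Among the class 4 semaphorins 2 of 6 were higher and 4 lower in CKO. Sema4c, a membrane-spanning ligand of B plexins, was at 2.58, 2.51 and 2.44 in CKO pools and 2.42, 3.15 and 2.57 in WT pools. WT pool 2 was the high one, the difference was -0.20 (SE 0.19), and without WT pool 2 it was 0.02. Sema4d, another ligand of the B plexins, differed by 0.16 (SE 0.16). Sema5a, the partner of Sema5b in class 5, was at 0.36, 0.69 and 0.70 in CKO pools and 0.36, 0.96 and 1.09 in WT pools. In both genotypes pool 1 was the low one, more so on its second array (0.16 in CKO, -0.12 in WT) than on its first (0.55 and 0.84). The difference was -0.22 (SE 0.21). Class 6, whose members span the membrane and act on A plexins, held 2 higher and 2 lower genes, from -0.17 for Sema6d (SE 0.21) to 0.19 for Sema6a (SE 0.20). Both ends rested on single pools: Sema6d differed by 0.03 without WT pool 2 and Sema6a by -0.01 without WT pool 3. Sema6a was at 0.27, 0.11 and -0.09 in CKO pools and 0.05, 0.16 and -0.50 in WT pools, with WT pool 3 lowest.

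The co-receptors of class 3 semaphorins differed in direction between Nrp1 and Nrp2. Nrp1, also a receptor part for vascular growth factors, was at -1.75, -1.66 and -1.63 in CKO pools and -2.27, -1.68 and -2.62 in WT pools. CKO pools lay close together, and WT pool 2 fell among them. The difference was 0.51 (SE 0.24, 95% interval -0.05 to 1.07), the highest among the measured guidance genes, with an adjusted p of 0.973 in limma. It was 0.29 without WT pool 3 and 0.76 without WT pool 2. Nrp2 was at 1.39, 1.41 and 1.50 in CKO pools and 1.59, 1.43 and 1.60 in WT pools, a difference of -0.11 (SE 0.12). A further Nrp2 probe, designed to another transcript, differed by 0.30, so that the probes did not share a sign, and the pools of both probes overlapped.

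The A plexins, which pair with neuropilins or bind class 6 semaphorins, had 3 of 4 genes higher in CKO and none at an unadjusted p under 0.05. Plxna2, a receptor of Sema6a in mossy fibre targeting, was at 1.29, 1.33 and 1.53 in CKO pools and 1.43, 0.44 and 1.74 in WT pools. WT pool 2 was far below the others, and the difference of 0.18 (SE 0.30) was -0.20 without it. Plxna3, a partner of Nrp2 for Sema3f, was at -2.21, -2.06 and -2.23 in CKO pools and -2.32, -1.85 and -1.62 in WT pools. WT pool 1 was the lowest of the 6 pools, through its second array (-2.60, against -2.04 on its first), and the difference was -0.24 (SE 0.21). Plxna1 and Plxna4 differed by 0.01 (SE 0.38) and 0.09 (SE 0.16). All 3 B plexins were higher in CKO, by 0.01 (Plxnb1, SE 0.13), 0.14 (Plxnb3, SE 0.15) and 0.14 (Plxnb2, SE 0.17), and none had an unadjusted p under 0.05. Plxnb2 was at 1.75, 1.85 and 1.75 in CKO pools and 1.31, 1.67 and 1.94 in WT pools, which overlapped, and without WT pool 1 it differed by -0.02.

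Of the 9 EphA receptors 6 were higher and 3 lower in CKO. Beside Epha8, Epha1 had the smallest p of this class, at -4.49, -4.40 and -4.95 in CKO pools and -5.19, -5.20 and -4.67 in WT pools. The groups overlapped through CKO pool 3 and WT pool 3, and the difference was 0.41 (SE 0.26). Its probe was well above background on all 4 CKO arrays but on 2 of 4 WT arrays, so it entered the comparison through its CKO values. Epha4, whose contact with ephrin-A3 on astrocytes controls spine shape in hippocampus, was at 1.46, 1.69 and 1.65 in CKO pools and 1.29, 1.02 and 1.83 in WT pools. WT pool 3 was the highest of the 6 pools and WT pool 2 the lowest, and the difference was 0.22 (SE 0.20). Epha10, which lacks kinase activity, differed by -0.33 (SE 0.28), and Epha5, Epha6 and Epha7 each differed by less than 0.1 in size.

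Of the 5 EphB receptors 1 was higher and 4 lower in CKO, and none had an unadjusted p under 0.05. Ephb1 was at 0.57, 0.62 and 0.39 in CKO pools and 0.38, 0.94 and 0.90 in WT pools. WT pool 1 lay with the CKO pools below the others, through its second array (-0.006, against 0.77 on its first). The difference was -0.21 (SE 0.17), and without that array it was -0.34. Ephb2, which binds NMDA receptors at synapses, was at -0.06, -0.53 and -0.41 in CKO pools and 0.23, -0.94 and -0.50 in WT pools. The CKO pools lay within the WT range and the difference was 0.07 (SE 0.28). Ephb6, a receptor without kinase activity, was at 2.82, 2.76 and 2.66 in CKO pools and 3.33, 2.35 and 2.87 in WT pools, a difference of -0.10 (SE 0.22). Ephb3 and Ephb4 differed by -0.14 (SE 0.22) and -0.15 (SE 0.19).

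The ephrins had 3 of 8 genes higher and 5 lower in CKO. Efnb1, a membrane-spanning ligand of EphB receptors, was at 0.24, 0.30 and 0.25 in CKO pools and 0.35, 0.06 and -1.03 in WT pools. WT pool 3 stood far below the others, and the difference of 0.47 (SE 0.31) was 0.06 without that pool. Efna3, the astrocyte ligand of Epha4, was at -1.43, -1.82 and -1.55 in CKO pools and -1.34, -2.23 and -2.20 in WT pools. WT pool 1 was the highest of the 6 pools, through its second array (-0.50, against -2.17 on its first), and the other WT pools the lowest. The difference was 0.32 (SE 0.26), and without that array it was 0.60. The further Efna3 probe differed by 0.73, with pools that did not overlap. Efna1 was at -1.43, -1.12 and -1.52 in CKO pools and -1.41, -0.76 and -0.97 in WT pools, a difference of -0.31 (SE 0.21). Here WT pool 1 fell among the CKO pools through its second array (-1.85, against -0.97 on its first), without which the difference was -0.46. Efnb2 and Efnb3 differed by -0.15 (SE 0.19) and -0.02 (SE 0.13), and Efna2, Efna4 and Efna5 by 0.15 (SE 0.23), -0.09 (SE 0.29) and -0.02 (SE 0.19).

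Of the netrin family, Ntn4 and Ntng2 were not measured, with 0 of 8 arrays well above background. Ntn1, the classical axon attractant, was at -4.08, -4.01 and -4.04 in CKO pools and -5.19, -3.83 and -4.09 in WT pools. WT pool 1 alone was low, through its second array (-6.33, against -4.06 on its first), and 3 of 4 WT arrays were well above background. The difference was 0.32 (SE 0.35), and without WT pool 1 it was -0.09. Ntn3 was at -1.75, -1.89 and -1.88 in CKO pools and -1.86, -2.06 and -2.30 in WT pools, which overlapped, with a difference of 0.24 (SE 0.18). Ntn5 was at -2.69, -2.73 and -2.83 in CKO pools, within the WT range (-2.10, -2.58 and -3.12), and differed by -0.15 (SE 0.26). Of the 3 measured netrins 2 were thus higher and 1 lower in CKO. Ntng1, a netrin-G protein of presynaptic membranes, was at 1.34, 1.1 and 1.14 in CKO pools and 1.78, 1.09 and 1.14 in WT pools, with WT pool 1 high and a difference of -0.15 (SE 0.19), which was 0.07 without that pool.

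The Unc5 receptors, which mediate repulsion by netrins, were all higher in CKO by small amounts: Unc5a by 0.02 (SE 0.12), Unc5c by 0.06 (SE 0.15) and Unc5b by 0.13 (SE 0.26). None had an unadjusted p under 0.05, and Unc5d was not measured. Unc5b was at -0.24, -0.14 and -0.36 in CKO pools and -1.002, -0.08 and -0.03 in WT pools. WT pool 1 was the low one, and without it the difference was -0.19. Unc5c differed by -0.03 without WT pool 3.

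Dcc, the netrin receptor that mediates attraction and is outside the name rule, was the one partner of these genes that passed the threshold, and it did so with the pool number as a block. Dcc was at 1.1, 1.49 and 1.25 in CKO pools 1, 2 and 3, against 0.22, 0.74 and 0.19 in WT pools. The genotypes did not overlap, CKO being higher, and in both pool 2 was the highest. The difference was 0.90 (SE 0.18, 95% interval 0.48 to 1.32), a 1.86-fold higher level in CKO, with an adjusted p of 0.227 in limma without the block and 0.0266 with it. Over the alternatives and left-out pools the Dcc difference ran from 0.58 to 1.20. With each pool left out, its adjusted p in limma without the block ran from 0.118 to 0.786. The other Dcc probes were not well above background on any array. Co-receptors and other binding partners formed a list chosen with earlier results of these data known. Of them 22 of 25 were measured (all but Draxin, Ret and Timd2), 9 higher and 13 lower in CKO. Of the 22, 0 passed the threshold without the block and 1, Dcc, with it, where 0.0273% and 0.562% of all genes did. Their median difference was -0.02, beside -0.0032 over all genes. Dscam, a further netrin receptor, was at 1.14, 1.01 and 1.20 in CKO pools and 0.58, 0.87 and 0.37 in WT pools. Its pools did not overlap and the difference was 0.51 (SE 0.15), with an adjusted p of 0.602 in limma. Rgma, a ligand of the netrin receptor relative neogenin, was at 0.69, 0.44 and 0.50 in CKO pools and 0.60, -0.94 and -0.35 in WT pools, which overlapped through WT pool 1, and differed by 0.77 (SE 0.34).

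Cytoplasmic effectors of guidance receptors, such as collapsin response mediators, small GTPase regulators and MICAL enzymes, were measured for 32 of 32 genes. Of these 8 were higher and 24 lower in CKO, where 49.4% of all genes were higher. Their pool means relative to the WT mean were -0.09, -0.10 and -0.06 in CKO pools and -0.14, 0.04 and 0.09 in WT pools. The genotypes thus overlapped, with WT pool 1 below all CKO pools. The median difference was -0.08, beside -0.0032 over all genes, and 0 passed the threshold with or without the block. The 3 genes of smallest p were Dpysl4, a collapsin response mediator, Rnd1, a plexin-binding GTPase, and Mical3, a MICAL enzyme. Dpysl4 was at 2.58, 2.53 and 2.56 in CKO pools and 3.03, 2.58 and 3.01 in WT pools, with the CKO pools around the level of WT pool 2 and below the other WT pools. It differed by -0.32 (SE 0.15), with an adjusted p of 0.940 in limma. Rnd1 and Mical3 differed by -0.38 (SE 0.20) and -0.32 (SE 0.19), with pools that overlapped.

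Marker lists of the cell types in the tissue, chosen with earlier results of these data known, were read in the same pools. Over all genes 49.4% were higher in CKO. The 10 measured hippocampal excitatory neuron markers had pool means of -0.30, -0.29 and -0.09 in CKO pools and 0.04, 0.03 and -0.08 in WT pools relative to the WT mean, with 4 higher and 6 lower in CKO. With the block 2 of them passed in limma, where 0.562% of all genes did: Wfs1 (-0.91, adjusted p 0.0163) and C1ql2 (-1.10, adjusted p 0.0466). Bcl11b was lower as well (-0.59, SE 0.19), whereas Slc17a7 was higher in CKO (0.35, SE 0.14), both with pools that did not overlap. The median difference of the list was -0.09, so the markers did not move as one. Myelinating oligodendrocyte markers were higher in CKO for 10 of 11, with pool means of 0.13 to 0.29 in CKO and -0.07 to 0.13 in WT. Astrocyte markers were higher for 5 of 9, with pool means of -0.05 to 0.16 in CKO and -0.05 to 0.08 in WT. Gfap, the astrocyte filament protein, was at 2.56, 3.19 and 2.77 in CKO pools and 1.94, 2.37 and 2.16 in WT pools. Its pools did not overlap, and the difference of 0.68 (SE 0.18) had an adjusted p of 0.503 in limma without the block and 0.0460 with it. Gfap was the 1 astrocyte marker of 9 that passed with the block, where 0.562% of all genes did. The pools of S100b did not overlap either but lay lower in CKO, by -0.22 (SE 0.14), and 4 of the 9 markers were lower. Microglial markers were higher for 9 of 12, with pool means of 0.22, 0.56 and -0.03 in CKO and 0.19, -0.10 and -0.09 in WT. Of 4 markers of neighbouring thalamus 1 was higher in CKO, with pool means of -0.57 to -0.07 in CKO and -0.60 to 0.36 in WT. Their part in the differences of the 5 leading guidance genes was not tested.

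Several genes were read by more than 1 probe, and the probes did not always share a direction. Of 15 guidance genes with more than 1 measured probe, 7 had probes that differed in sign: Epha5, Epha7, Ephb4, Ephb6, Nrp2, Ntng1 and Sema6c. Ephb6 is counted through a dim probe (mean -4.51 in CKO and -4.74 in WT) above background on 4 CKO arrays and 2 WT arrays. That probe entered through its CKO values, so its sign carries little weight. Epha5 is counted through a difference of 0.0007. Epha7 had the widest gap among the 15, with 0.03 at the probe that was read, 0.51 at a probe whose CKO pools all lay above the WT pools and -0.18 at the remaining one. Plxnd1 and Sema5b were lower in CKO at each of their measured probes.

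**Figure D3:**
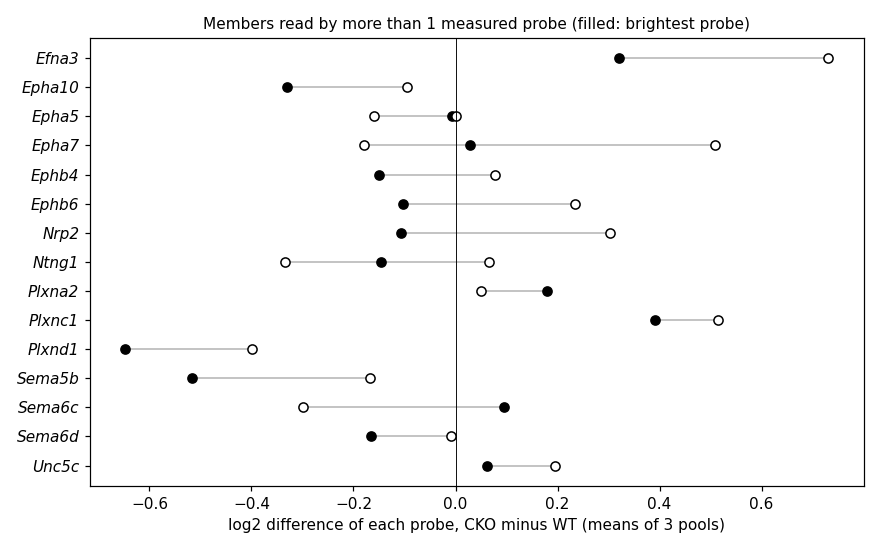
Log2 difference (CKO minus WT, means of 3 pools) of each measured probe for the 15 guidance genes with more than 1, the brightest probe filled. Plxnd1 and Sema5b lie below 0 at each of their measured probes, and 7 genes have probes on both sides of 0.

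The WT pools were more spread than the CKO pools. The SD over WT pools exceeded that over CKO pools in 49 of the 58 guidance genes, where it did so in 81.4% of all genes, and the median SD was 0.127 in CKO and 0.320 in WT. When only the first array of every pool was used it did so in 42 of the 58 (67.5% of all genes). The arrays of pool 1 differed from each other by a median of 0.194 over the guidance genes in CKO and 0.497 in WT. Over all genes these repeat arrays correlated by 0.989 in CKO and 0.953 in WT.

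The 5 leading differences were recomputed under other processing settings. None reached an adjusted p of 0.05 in limma under the 20 alternatives. As their pools do not overlap, leaving out a pool could not turn their direction. Plxnd1 ran from -0.72 to -0.52 and Plxnc1 from 0.34 to 0.45. Sema4b ran from -0.48 to -0.34, Sema5b reached -0.34 when its measured probes were averaged, and Epha8 was the most variable of the 5. The lowest adjusted p that Plxnd1 reached was 0.0606, when only the first array of every pool was used, and it was 0.0639 without the second array of WT pool 1 and 0.0982 without WT pool 1.

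**Figure D4:**
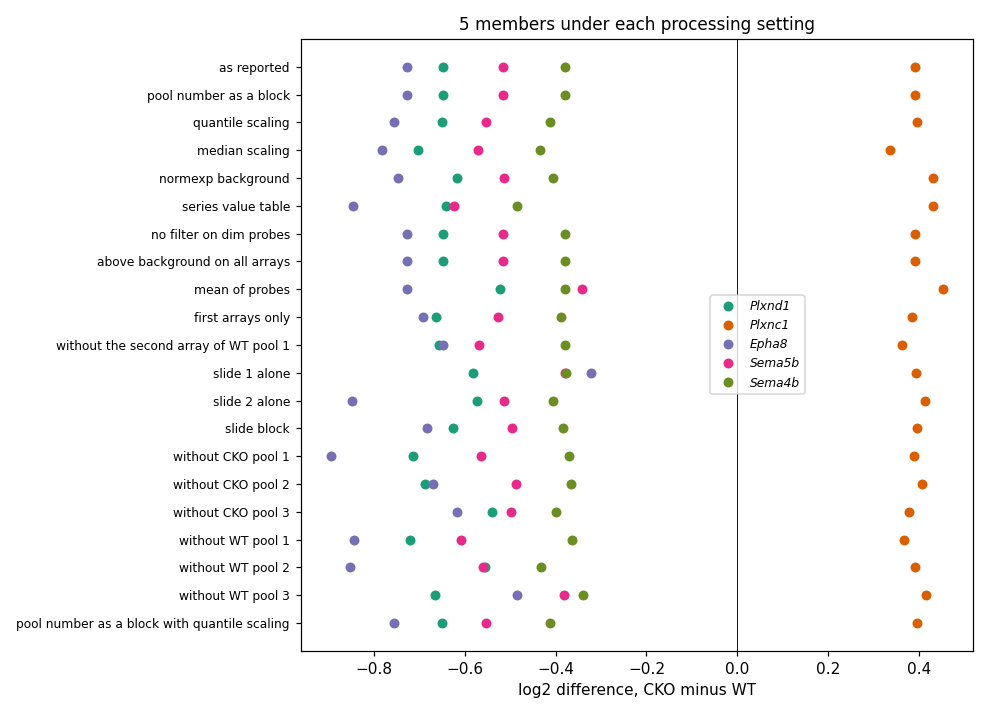
Log2 difference (CKO minus WT) of the 5 leading guidance genes as reported and under each of 20 alternatives, listed down the page. Plxnc1 stays to the right of 0 and the other genes to the left of it in every setting, and Epha8 is widest spread, at -0.32 in slide 1 alone and -0.89 without CKO pool 1.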

How the data were processed

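Total RNA from 6 hippocampal pools was labelled with Cy5 and measured on 8 Agilent arrays on 2 slides, 4 arrays a slide. The deposited scanner files hold an intensity per spot that the submitters' processing notes credit to Agilent Feature Extraction 11.5 (the headers give version 11.5.1.1). The background was subtracted and a spatial trend removed array by array, with no normalization across arrays, per the file headers. The deposited series value table, also linear intensity, was an alternative; how its arrays were brought to one scale is not stated.

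The log2 of the processed signal minus the array's 75th percentile of non-control spots was computed. Spots flagged as outliers were left out, and the spots of a probe and the arrays of a pool were averaged. A probe was kept where it stood well above background throughout the arrays of CKO, of WT or of both, and 18333 genes were each read by its brightest probe. CKO was tested against WT in limma 3.58.1 under R 4.3.3, using lmFit and a trended eBayes. Tests were two-sided, and p-values were adjusted over all genes by Benjamini-Hochberg, with a threshold of 0.05. The scripts were tested on simulated data with equal spread in both genotypes and changes larger than any difference of the guidance genes. That test does not bear on differences of the size reported here. The number of arrays limits precision. Members, classes and lists were chosen with earlier results of these data known. The genes named were those of the smallest p in each class, those with separated pools or passing with the block, the brightest of a class, and 3 per pathway list; others were named after their values were seen. Alternatives covered scaling, background, probe choice, slides, left-out arrays and pools, and the pool number as a block.

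The pool number was checked as a pairing. Deviations from the genotype mean correlated over genes between CKO and WT pools of one number by 0.55, 0.33 and 0.13 (pools 1, 2 and 3). Between pools of different number they correlated by at most 0.12, a level that pool 3 hardly exceeded. In the labels, pools of one number share sex and age makeup, and they also share the slide layout. Pool 1 of each genotype had an array on slide 1 and a repeat on slide 2. Pool 2 of each genotype lay on slide 1 only, and pool 3 of each on slide 2 only. The block therefore holds sex, age, slide and repeat arrays together, and their separate parts were not tested. With first arrays alone the correlations were 0.09, 0.08 and 0.12. Gene names come from the array files.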

Additional observations from a re-analysis of the deposited data

How the results depend on the processing

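The count of guidance genes past an adjusted p of 0.05 in limma was 0 under all 20 alternatives, and their median difference stayed within the spread between WT pool medians. The count over all genes, 5 as reported, came to 103 when the pool number was blocked, 69 with the block and quantile scaling (an alternative chosen after seeing the data), 3 with the series value table, 124 with first arrays only, 108 without the second array of WT pool 1 and 0 in slide 2 alone, and it ran from 0 to 21 with each pool left out. The count of guidance genes at an unadjusted p under 0.05, 5 as reported, was 9 with first arrays only (14.6% of all genes), 9 without the second array of WT pool 1 (16.8%) and 0 in slide 2 alone (1.41%), and it ran from 2 to 13 with each pool left out (3.19% to 18.8% of all genes). The block moved Ctcf (adjusted p 0.0292) and Dcc (0.0266) past the threshold in limma and changed no call among the guidance genes. The sign turned under at least 1 alternative for 39 of the 58 guidance genes, among them 2 of the 19 whose reported difference was at least its SE, Efna3 and Sema4c. In slide 2 alone 16 had the opposite sign, among them Efna3 (-0.0042), Sema4c (0.063), Plxna2 (-0.16), Efnb2 (0.10) and Sema7a (0.09), and in slide 1 alone 15 did, among them Sema3f (0.09). Sema4c ran from -0.35 to 0.016 with each pool left out. The cause was not tested. Median scaling moved the median of all genes to -0.06. Ntn1 and Epha1 were not above background on all WT arrays, which limits their differences.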
